A study of Mus musculus with 6 samples.

Results

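Paired receptors of myeloid cells are families whose members share similar outer domains and send opposite signals inward. In microglia, the macrophages that live in brain tissue, 9 genes of such families and their partners were followed. The genes were Lilrb4a, Pirb, Lilra5, Cd300a, Cd300lf, Cd300ld, Sirpa, Cd47 and Cd200r1, taken by symbol from 55421 genes in the deposited table, and all 9 passed the filter on low values (a mean above 1 over the 6 libraries). RNA was sequenced from cells of C57BL/6 mice of 4 to 5 weeks, sorted from digested brain by flow cytometry for the surface proteins CD45 and CD11B after myelin removal. The 3 libraries labelled KO came from mice of genotype QKIflfl; Cx3cr1cre-ert2, and the 3 labelled WT from mice of genotype QKIfl/fl. All mice thus carried floxed Qk, the gene of the RNA-binding protein QKI, and the Cre allele, not just the deletion it is meant to make, separates the groups. The Cre is a fusion with an estrogen receptor domain that needs tamoxifen to act, and the sources used here give no tamoxifen dose. The Cx3cr1 promoter is active in microglia and in other macrophages and monocytes. The sources do not tell whether each library is its own animal, and the p-values therefore reflect library-to-library spread, which may be technical.

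Most inhibitory members of these families carry a tyrosine motif in a long tail (ITIM) that recruits the phosphatases encoded by Ptpn6, Ptpn11 and Inpp5d. Activating members have a short tail and signal through adaptors with an activating motif (ITAM), encoded by Tyrobp and Fcer1g. Sirpa, on phagocytes, binds Cd47 on other cells and restrains their engulfment, and Cd200r1 binds CD200, which neurons display, and is known as a brake on microglia.

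Qk itself was higher in the libraries labelled KO, at 24768 ± 1073 normalised reads, against 11632 ± 800 in those labelled WT (SD, n = 3 each). The values thus show no drop in the RNA counted for the gene. Reads of the floxed part alone were not examined, and the deletion was not tested. Each direction given here refers to how libraries were labelled. Cx3cr1, a microglial receptor gene whose promoter drives the Cre, had 58308 ± 4848 normalised reads in the libraries labelled KO and 246161 ± 11084 in those labelled WT. The summed level of 10 microglial markers was 772447 to 881975 in the libraries labelled KO and 1596350 to 1655331 in those labelled WT, and no marker was at 0. Of 11 neutrophil markers 9 fell and 0 rose where the label was KO, and there Ly6g and Mmp8 were at 0. With Csf3r, which held most of it, the neutrophil sum was 27995 to 34145 under the KO label and 29369 to 45549 under WT, and the groups overlapped. Leaving out Csf3r, it was 55.4 to 118.1 in the libraries labelled KO and 1892.9 to 16866.4 in those labelled WT, highest in WT C. The full monocyte sum was higher under the KO label, at 57307 to 94023, than under WT, at 8165 to 12740. Without Nr4a1, its most abundant gene, the direction turned and the sum was 231.2 to 308.9 in the libraries labelled KO and 544.8 to 932.7 in those labelled WT, with 1 of 10 markers higher and 5 lower. Markers of border-associated macrophages summed to 22764 to 25384 under the KO label and 31601 to 32688 under WT. Without Stab1, the most abundant, the direction turned here too, with 2165.4 to 3630.0 in the libraries labelled KO and 1151.0 to 1842.1 in those labelled WT, with 5 of 10 higher and 1 lower. The part of these cells in the values that follow was not tested. Paired receptors are also made by these other myeloid cells, and in sorted bulk samples fewer cells of a type and less RNA per cell cannot be told apart.

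The upstream sequences of 4 receptor genes are shown because they form 2 pairs of related genes on the same chromosome, Pirb and Lilra5 on 7 and Cd300lf and Cd300a on 11, of which Pirb and Cd300lf rose and their relatives did not. Each sequence is the 250 bases before the gene's start, from RefSeq on GRCm38.p6. RefSeq promoters were matched for 6 of the 9 members, not for Lilrb4a, Sirpa or Cd200r1. Capitals mark matches, on either strand, to GAGGAA (the core bound by the myeloid factor PU.1), GAAA, any 2 bases and GAAA (an interferon-stimulated response element), GGGA, any 4 bases and CC (NF-kB), TGANTCA (AP-1) or GGGCGG (SP1).
Pirb (chr7:3720383-3720632, minus strand): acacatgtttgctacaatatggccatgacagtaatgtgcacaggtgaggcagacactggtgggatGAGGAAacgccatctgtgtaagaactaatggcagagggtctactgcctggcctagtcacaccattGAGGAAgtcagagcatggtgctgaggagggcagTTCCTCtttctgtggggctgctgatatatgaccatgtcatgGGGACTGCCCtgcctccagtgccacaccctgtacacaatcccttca
Lilra5 (chr7:4237504-4237753, plus strand): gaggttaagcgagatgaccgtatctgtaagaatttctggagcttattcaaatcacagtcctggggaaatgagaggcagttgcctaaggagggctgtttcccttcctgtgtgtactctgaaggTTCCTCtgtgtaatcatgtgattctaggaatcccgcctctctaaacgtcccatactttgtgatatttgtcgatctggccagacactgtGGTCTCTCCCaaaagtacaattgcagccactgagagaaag
Cd300lf (chr11:115133993-115134242, minus strand): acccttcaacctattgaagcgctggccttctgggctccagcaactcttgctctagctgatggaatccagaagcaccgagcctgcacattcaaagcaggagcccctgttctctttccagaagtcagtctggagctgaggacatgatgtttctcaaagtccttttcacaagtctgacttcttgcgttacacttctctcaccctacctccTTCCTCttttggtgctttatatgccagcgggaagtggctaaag
Cd300a (chr11:114889791-114890040, plus strand): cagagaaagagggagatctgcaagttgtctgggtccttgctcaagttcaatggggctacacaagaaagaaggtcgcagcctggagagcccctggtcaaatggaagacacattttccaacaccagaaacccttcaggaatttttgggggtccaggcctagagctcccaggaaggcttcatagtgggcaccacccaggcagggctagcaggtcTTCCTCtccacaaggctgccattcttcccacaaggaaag
The PU.1 core was found in all 4 of these windows and in 5 of the 6 matched, Cd47 being the exception. Over all 32851 promoter windows of the same length 23.3% held it. In Pirb it stood 3 times, beginning 185, 120 and 87 bases before the start, in Lilra5 once at 128, in Cd300lf at 43 and in Cd300a at 39. An NF-kB match lay in Pirb at 46 bases and in Lilra5 at 40 bases before the start, and 1 in Cd300ld, against 17.6% of all windows with one. The letters searched for AP-1 (in 6.75% of all windows) and for the interferon element (in 2.98%) were in none of the 6 windows, and those for SP1 (in 32.7%) were in Cd47 alone. These matches describe the letters and are not measured binding sites.

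QKI binds RNA at the motif ACUAAY, so the transcripts listed for the members were searched for ACTAAC and ACTAAT (DNA letters, transcript strand). The sites in Sirpa and Cd47, the receptor and ligand whose levels differed in opposite directions, and the site in Cd300a are shown as 30 bases with the motif in capitals, on GRCm38 from GENCODE M21.
Sirpa (chr2:129630781-129630810, plus strand): cctccagctagcACTAACtcagcagcatcg
Cd47 (chr16:49911211-49911240, plus strand): gactcgccaagcACTAACctgagggttagt
Cd47 (chr16:49912427-49912456, plus strand): tgtgtttgcatcACTAATggttatttcttc
Cd300a (chr11:114903118-114903147, plus strand): cccccttcttgtACTAATgttttgagacat
All 4 sites lie in the annotated 3′ UTR, as do the 2 sites of Cd300ld. Lilrb4a, Pirb, Lilra5, Cd300lf and Cd200r1 had 0 matches in the listed transcript. For Lilrb4a and Pirb that transcript is annotated as one with a retained intron, and the other transcripts of each gene were not searched. Of tested transcripts within 10% of the length of Sirpa, 54.2% held at least 1 such motif, and of those near the length of Cd47, 65.0%. The share was 59.3% at the length of Cd300a and 33.9% at that of Cd300lf. The members with the motif thus included genes that were higher, lower and not called.

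Of the 9 members, 6 were called between the groups by limma at an adjusted p under 0.05 (Benjamini-Hochberg over 22472 genes), of which 4 were higher and 2 lower where the label was KO. Among all tested genes 34.6% were called, 11.3% higher and 23.4% lower. Of the members only Cd300ld lies below the median level of tested genes. In a fit of the 11236 genes above that level 5672 were called, 1833 higher and 3839 lower, with 6 members among them. With trimmed-mean (TMM) scaling in place of the deposited scaling, 5 members were called, 4 higher and 1 lower, against 30.4% of all genes, 15.4% higher and 15.0% lower. Over all tested genes the median change in log2 units was -0.15 with the deposited scaling and -0.015 with TMM factors, so every member stood about that difference higher with TMM factors. Cd300lf, Lilrb4a and Pirb, receptors with inhibitory tails, rose, and Sirpa, also inhibitory and the most abundant of the 9 members, fell. The inhibitory receptor gene Cd300a was called lower with the deposited scaling and not with TMM factors, and Cd200r1 was not called. Cd300lf and Lilrb4a were 7.46-fold and 5.04-fold higher, and Sirpa was 1.64-fold lower in the libraries labelled KO. The members with short activating tails, Lilra5 and Cd300ld, did not pass the test. Of activating relatives outside the members, Pira2 was called higher, Cd300lb was called lower and Cd300c2 was not called. Over the 14 relatives tested, 3 were called higher, Pira2, Cd300ld3 and Lilr4b, which lacks the ITIM motifs. The 2 called lower were Cd300lb and Cd300c. With 3 libraries against 3, the groups did not overlap for 6 of the 9 members, 4 with the KO libraries above and 2 with them below; 47.9% of all tested genes were so separated, 15.7% higher and 32.2% lower.

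**Figure D1:**
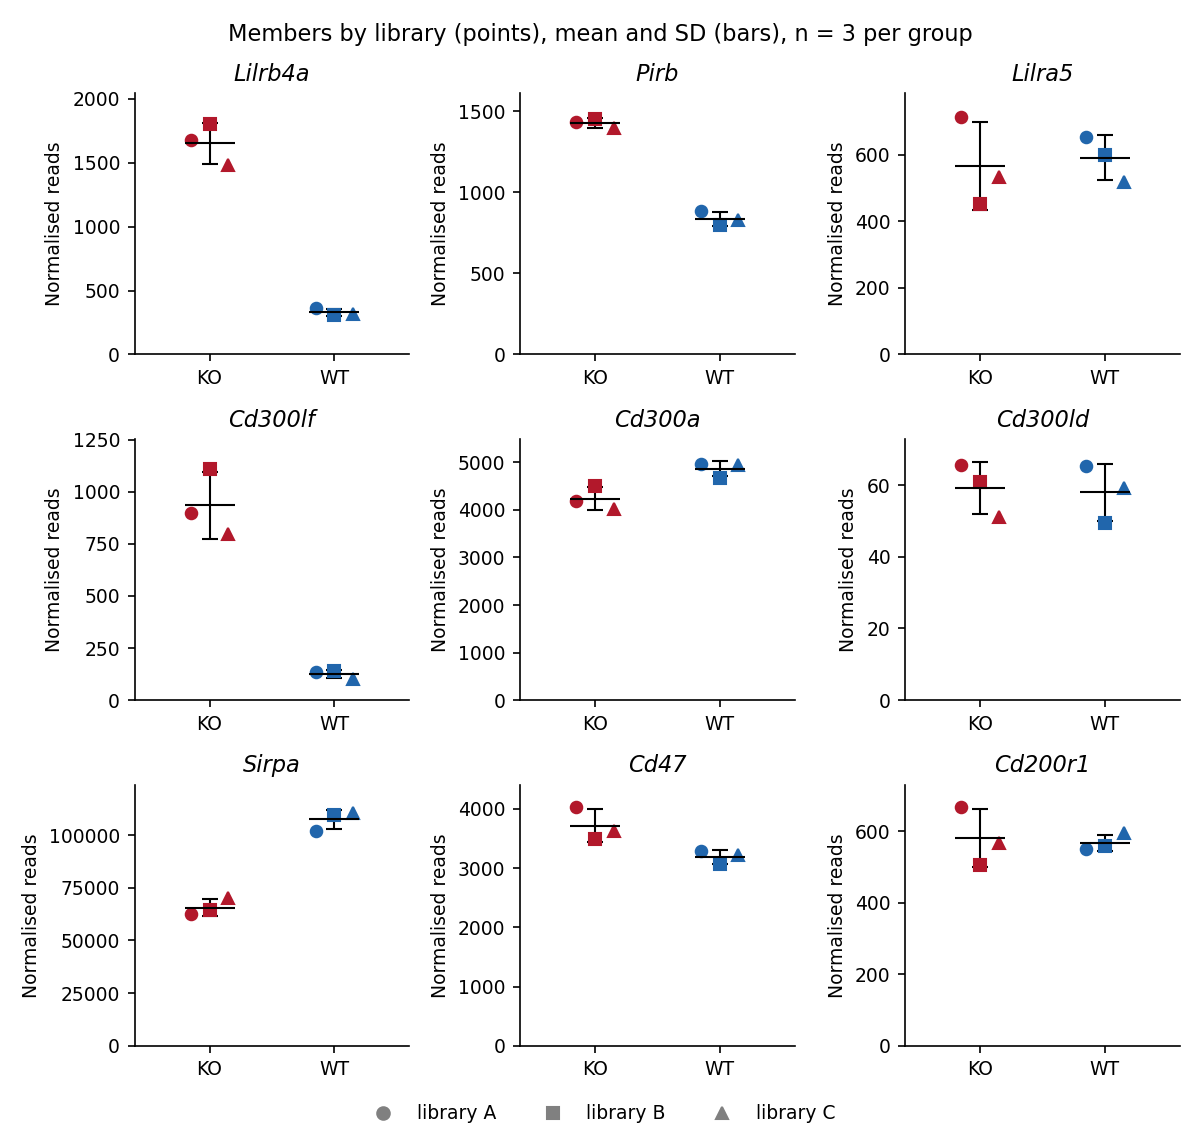
Normalised reads (y axis, from 0) of each of the 9 genes in the 3 libraries labelled KO (left) and the 3 labelled WT (right), with the mean and SD. Lilrb4a, Pirb, Cd300lf and Cd47 lie higher in every library labelled KO, Sirpa and Cd300a lie lower, and Lilra5, Cd300ld and Cd200r1 overlap.

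Lilrb4a encodes an inhibitory receptor of the immunoglobulin superfamily with ITIM motifs in its tail. It had 1679, 1802 and 1481 normalised reads in the libraries labelled KO A, KO B and KO C, against 361, 312 and 312 in WT A, WT B and WT C. The lowest library labelled KO was far above the highest labelled WT. The mean was 1654 ± 162 under the KO label and 328 ± 28.3 under WT (SD, n = 3 each); on the log2 scale the difference was 2.33 (SE 0.10, adjusted p = 1.22e-07, limma). The gene is on the plus strand of chromosome 10, where its listed transcript spans 51490971 to 51494848 (GRCm38). That transcript is annotated as one with a retained intron, and 19.1% of its 50-base windows also occur in transcripts of the neighbour Lilr4b. Windows shared with the overlapping gene model Gm49339 on the same strand made up 16.5%, those shared with any gene 32.8%, and an antisense gene overlaps it, so reads could be divided between these with error. Lilr4b, a close relative known in mouse as gp49A that lacks the ITIM motifs, had 233 ± 27.1 normalised reads in the libraries labelled KO and 141 ± 32.7 in those labelled WT (log2 fold change 0.74, adjusted p = 0.0103, limma).

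Pirb encodes a receptor with several ITIM motifs that binds class I histocompatibility molecules. Its values were 1435, 1454 and 1395 normalised reads in KO A, KO B and KO C, and 884, 797 and 830 in WT A, WT B and WT C. All libraries labelled KO lay above all those labelled WT, with coefficients of variation of 2.10% in the first and 5.25% in the second. Pirb was 1.71-fold higher in the libraries labelled KO, or by 0.77 on the log2 scale (SE 0.08, adjusted p = 2.86e-05, limma). The gene is on the minus strand of chromosome 7 and its listed transcript, also one with a retained intron, spans 3712537 to 3720362. Of its 50-base windows 42.3% also occur in transcripts of other genes, so its reads are uncertain. The largest shares were 23.1% with the gene model Gm14548, 22.0% with Pira2, an activating counterpart, and 20.1% with Lilra6. Further gene models shared less, and the levels of the gene models are not given here. Pira2 was near the limit of detection, with 8.45 ± 1.42 normalised reads in the libraries labelled KO and 1.73 ± 0.35 in those labelled WT. A count of 0 leaves room for 3 reads, or 1.34 to 1.81 on the deposited scale. Pira2 passed (log2 fold change 1.79, adjusted p = 0.00648, limma).

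Lilra5, a receptor with a short tail that signals through the Fcer1g adaptor, had 711, 452 and 533 normalised reads in KO A, KO B and KO C and 652, 600 and 519 in WT A, WT B and WT C. Its libraries labelled KO spread on both sides of those labelled WT, with a coefficient of variation of 23.4%, the widest of any member in either group. The log2 fold change was -0.080 with a 95% interval of -0.42 to 0.26 (adjusted p = 0.731, limma), and with TMM factors its sign turned, at 0.061. The gene is on the plus strand of chromosome 7 at 4237754 to 4243463, and 0 of its 50-base windows were shared with another gene.

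Cd300lf encodes a receptor of phosphatidylserine and other lipids with inhibitory tail motifs, and is known in mice as the entry receptor of norovirus. It had 897, 1110 and 798 normalised reads in KO A, KO B and KO C, and 134, 139 and 103 in WT A, WT B and WT C. Even the lowest library labelled KO stood well above all those labelled WT. The mean was 935 ± 159 under the KO label and 125 ± 19.5 under WT (SD, n = 3 each) and the log2 fold change 2.89 (SE 0.15, adjusted p = 4.32e-07, limma), the largest of the 9 genes. Cd300lf occupies 115116214 to 115133992 of chromosome 11, minus strand, and overlaps Rab37 on the opposite strand. No source used here says whether reads were counted by strand, so reads of Cd300lf and Rab37 from the overlap cannot be told apart. Of the 50-base windows of Cd300lf 6.75% also occur in transcripts of other genes, 5.17% in those of Cd300ld and 0.87% in those of Cd300ld3. The share with any gene was 3.59% for Cd300a and 3.89% for Cd300ld.

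Cd300a encodes another inhibitory receptor of phosphatidylserine, on the plus strand of chromosome 11 at 114890041 to 114904654. Its values were 4182, 4507 and 4027 normalised reads in KO A, KO B and KO C, and 4975, 4683 and 4949 in WT A, WT B and WT C. All libraries labelled KO lay below all those labelled WT, by a small margin. The call (log2 fold change -0.20, SE 0.070, adjusted p = 0.0468, limma) ended with TMM factors, at -0.060 (adjusted p = 0.571), and when any 1 of KO A, KO C, WT A, WT B or WT C was left out (adjusted p = 0.102, 0.155, 0.13, 0.0628 and 0.129). Cd300ld, on the minus strand at 114982274 to 114989922, encodes a short-tailed receptor that signals through Fcer1g. It had 65.5, 61.0 and 51.1 normalised reads in KO A, KO B and KO C and 65.3, 49.4 and 59.1 in WT A, WT B and WT C, so that the groups overlapped. The difference was 0.032 on the log2 scale, with a 95% interval of -0.42 to 0.49 (adjusted p = 0.925, limma), and rested on 98 to 143 whole reads per library.

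Most RNA of the Cd300 family came from a gene outside the 9. Cd300c2, an activating receptor that uses the Tyrobp adaptor, made up 83.2% ± 0.80 of the summed level per kilobase of 12 Cd300 genes in the libraries labelled KO and 86.6% ± 0.38 in those labelled WT (SD, n = 3 each). Its own change was -0.035 on the log2 scale (adjusted p = 0.734, limma) and 0.11 with TMM factors. Cd300a held 10.1% ± 0.16 of that sum in the libraries labelled KO and 11.7% ± 0.31 in those labelled WT. Cd300lf held 5.47% ± 0.69 under the KO label and 0.75% ± 0.15 under WT. Among the low genes of the cluster Cd300ld3 rose, with 61.9 ± 0.38 normalised reads in the libraries labelled KO and 9.88 ± 0.68 in those labelled WT (log2 fold change 2.53, adjusted p = 2.89e-05). Cd300lb, a receptor of the activating type, fell to 14.9 ± 3.91 normalised reads in the libraries labelled KO, against 47.2 ± 11.2 in those labelled WT. Cd300c averaged 7.46 ± 1.09 under the KO label and 19.1 ± 4.44 under WT (adjusted p = 0.0171, limma), a call lost without KO C or WT A (adjusted p = 0.0512 and 0.0561). Over all 27 relatives listed, 18 were in the table and 14 were tested. Of these 3 were higher and 2 lower, against 11.3% and 23.4% of all tested genes. Their median change was -0.0028 on the log2 scale, against -0.15 over all genes. The Sirpb1 genes, relatives of Sirpa, had no value above 5.06.

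Sirpa was by far the most abundant member and exceeded 99.8% of tested genes in mean normalised reads. Its values were 62324, 64431 and 70072 normalised reads in KO A, KO B and KO C, against 102038, 109649 and 110631 in WT A, WT B and WT C. No library labelled KO reached the level of any labelled WT. Sirpa fell to 65609 ± 4006 in the libraries labelled KO, against 107439 ± 4703 in those labelled WT (SD, n = 3 each), which is -0.71 on the log2 scale (SE 0.09, adjusted p = 0.000138, limma), or -0.57 with TMM factors (adjusted p = 0.000891). The gene is on the plus strand of chromosome 2 at 129592839 to 129632220, and its transcript shared 0 windows with other genes.

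Cd47, the ligand of Sirpa, had 4030, 3494 and 3632 normalised reads in KO A, KO B and KO C, and 3291, 3063 and 3215 in WT A, WT B and WT C. The groups lay close and did not overlap. The log2 fold change was 0.22 (SE 0.07, adjusted p = 0.0433, limma) and 0.36 with TMM factors (adjusted p = 0.00723). With the deposited scaling the call was lost without any 1 of KO A, KO C, WT A, WT B or WT C (adjusted p = 0.147, 0.0797, 0.0684, 0.134 and 0.0918). Cd47 is on the plus strand of chromosome 16 at 49855645 to 49915010. The cells were sorted, and the part of RNA from other cells in the Cd47 values was not tested.

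Cd200r1 is on the same chromosome, plus strand, at 44765736 to 44794978. It had 667, 507 and 568 normalised reads in KO A, KO B and KO C and 552, 559 and 594 in WT A, WT B and WT C; the libraries labelled KO spread around those labelled WT. Its difference was 0.023 on the log2 scale with a 95% interval of -0.22 to 0.26 (adjusted p = 0.898, limma). Cd200, the ligand gene, was low in these sorted cells, at 6.89 ± 1.27 normalised reads in the libraries labelled KO and 26.2 ± 11.9 in those labelled WT, and passed as lower (log2 fold change -1.69, adjusted p = 0.00905). A summed level of 6 neuronal markers moved the same way, 149.7 to 178.2 in the libraries labelled KO and 308.4 to 442.6 in those labelled WT. The part of these cells in the Cd200 result was not tested.

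**Figure D2:**
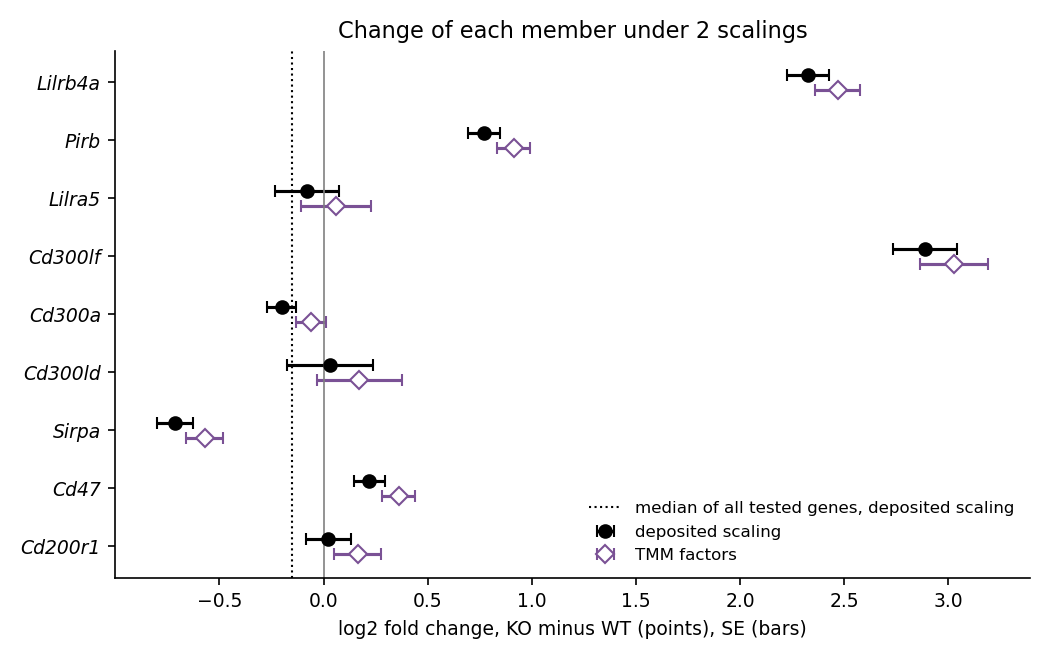
Log2 fold change of each gene, libraries labelled KO minus those labelled WT, with its SE, under the deposited scaling and with TMM factors. Cd300lf at 2.89, Lilrb4a at 2.33 and Pirb at 0.77 lie right of 0 and Sirpa at -0.71 left of it under both scalings, Cd300a moves to -0.060 with TMM factors, and Lilra5 changes sign.

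The summed markers of neutrophils, monocytes, neurons, astrocytes and oligodendrocytes without their most abundant gene were highest in WT C, and the large changes were nearly the same without that library. Without WT C the log2 fold changes were 2.29 for Lilrb4a, 0.77 for Pirb, 2.75 for Cd300lf and -0.69 for Sirpa. Across all 15 alternatives these 4 genes kept their direction and call, with ranges of 2.26 to 2.47, 0.74 to 0.91, 2.75 to 3.03 and -0.76 to -0.57 on the log2 scale. The log2 fold changes in the authors' deposited table were 2.47, 0.91, 3.03 and -0.57 for Lilrb4a, Pirb, Cd300lf and Sirpa. That table, the authors' deposited table, gives Cd47 as 0.36 (adjusted p = 0.000386) and Cd300a as -0.059 (adjusted p = 0.657).

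Levels per kilobase of listed transcript put the receptors in order within each group. In the libraries labelled KO, Sirpa came first with 17234 ± 1052 normalised reads per kilobase, then Cd300a with 915 ± 52.9 and Cd47 with 711 ± 53.2 (SD, n = 3). Cd300lf, Lilrb4a and Pirb followed with 500 ± 85.1, 443 ± 43.3 and 434 ± 9.09, and each of these neighbours overlapped the next over the libraries. Cd200r1 and Lilra5, at 309 ± 43.2 and 270 ± 63.1, overlapped too, and Cd300ld was last with 22.4 ± 2.79. In the libraries labelled WT the first 3 places were the same, with Sirpa at 28221 ± 1235, Cd300a at 1051 ± 34.9 and Cd47 at 610 ± 22.2. There Cd200r1, Lilra5 and Pirb came next with means of 302, 281 and 254 (coefficients of variation 3.96%, 11.4% and 5.25%), each overlapping its neighbour, and Lilrb4a, Cd300lf and Cd300ld were last with 87.9 ± 7.57, 67.0 ± 10.4 and 22.0 ± 3.04. Cd300lf and Lilrb4a thus stood below Cd200r1 and Lilra5 in every library labelled WT and above both in every library labelled KO. The lengths of Lilrb4a and Pirb are those of transcripts with a retained intron, and the choice of length bears on their levels per kilobase. Whether reads from the retained intron entered their values, and so their fold changes, was not tested.

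Ratios between 2 genes in the same library do not depend on the scaling between libraries. The ratio of Cd300lf to Cd300a, per kilobase, was 0.53, 0.61 and 0.49 in KO A, KO B and KO C and 0.067, 0.074 and 0.052 in WT A, WT B and WT C. Sirpa over Cd47 was 21.3, 25.3 and 26.5 in KO A, KO B and KO C and 42.6, 49.2 and 47.3 in WT A, WT B and WT C. Pirb over Lilra5 was 1.29, 2.05 and 1.67 in the libraries labelled KO and 0.86, 0.85 and 1.02 in those labelled WT, and Lilrb4a over Lilr4b was 7.11, 7.70 and 7.76 under the KO label and 2.37, 3.20 and 2.08 under WT. None of these 4 ratios overlapped between the groups. The numerator gene of each was already separate between the groups, as were 47.9% of all tested genes, so the ratios add no independent support. Each difference had an exact two-sided permutation p = 0.1, also 0.1 after Benjamini-Hochberg adjustment over 6 ratios, which is the smallest that 3 libraries against 3 allow.

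**Figure D3:**
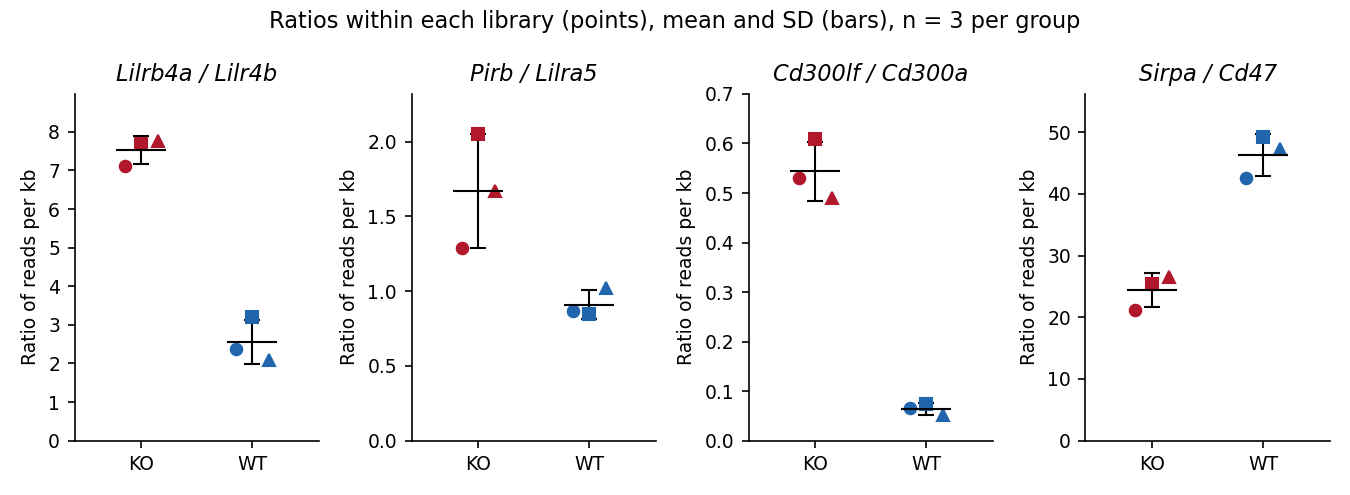
Ratio of normalised reads per kilobase of 2 genes in the same library (y axis, from 0), in the 3 libraries labelled KO (left) and the 3 labelled WT (right), with the mean and SD. Lilrb4a to Lilr4b, Pirb to Lilra5 and Cd300lf to Cd300a are higher in every library labelled KO, and Sirpa to Cd47 is lower.

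Ligands of the receptors were mixed, with 4 of 10 that rose and 5 that fell under the KO label (median log2 fold change -0.35). With TMM factors 4 were higher and 4 lower. The shares of all tested genes were 11.3% higher and 23.4% lower, or 15.4% and 15.0% with TMM factors. The class I genes, whose products Pirb binds, rose: B2m, the shared light chain, had 103317 ± 8473 normalised reads in the libraries labelled KO and 52946 ± 3118 in those labelled WT. H2-K1 and H2-D1, heavy chains that are close copies and may exchange reads, changed by 1.56 and 1.48 on the log2 scale (adjusted p = 1.48e-07 and 6.68e-07). Thbs1, the gene of thrombospondin, a ligand of Cd47, rose by 0.81 (adjusted p = 0.000216). Fn1, the fibronectin gene, fell by 0.94 (adjusted p = 0.0138, limma). Among the ligands of Pirb known from myelin, Omg averaged 25.7 ± 8.59 normalised reads under the KO label and 93.7 ± 65.3 under WT and passed as lower (log2 fold change -1.65, adjusted p = 0.0133). Mag did not pass (-0.42, adjusted p = 0.0754; 0.0107 with the replicate block and 0.0185 without WT B). The 5 oligodendrocyte markers, Mag among them, summed to 5347.7 to 6088.5 in the libraries labelled KO and 7712.8 to 19698.4 in those labelled WT, and their part in these values was not tested. Rtn4, which encodes Nogo, was abundant, at 9037 ± 807 normalised reads in KO libraries and 11055 ± 828 in WT libraries. Its difference of -0.29 lost its call with TMM factors (adjusted p = 0.285), with edgeR, DESeq2 and limma-voom on whole reads (adjusted p = 0.27, 0.284 and 0.25) and without KO B, KO C, WT A or WT B (adjusted p = 0.0752, 0.0662, 0.0882 and 0.0624). Angptl2, at -1.56, lost it without KO A, KO B, WT A or WT C (adjusted p = 0.0552, 0.0944, 0.0621 and 0.0917), and with edgeR and limma-voom on whole reads (adjusted p = 0.0515 and 0.0663).

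Of the 3 adaptors of the activating receptors 1 rose under the deposited scaling, where 11.3% of all tested genes rose (15.4% with TMM factors). Tyrobp, which encodes DAP12, had 29857 ± 2913 normalised reads in the libraries labelled KO and 22556 ± 2220 in those labelled WT (log2 fold change 0.40, adjusted p = 0.00889, limma). Fcer1g at 0.14 and Hcst at 0.30 did not pass (adjusted p = 0.152 for each) and did with TMM factors, at 0.28 and 0.44, so that 3 of 3 were then called. With the replicate block 2 of 3 were called, Fcer1g at an adjusted p = 0.0465.

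Effectors of the inhibitory tails differed by gene, with 1 of 9 higher and 3 lower (median -0.10). With TMM factors 3 were higher and 2 lower. All tested genes gave 11.3% higher and 23.4% lower, or 15.4% and 15.0% with TMM factors. Ptpn6, the main phosphatase of these receptors in myeloid cells, had 13367 ± 812 normalised reads in the libraries labelled KO and 14309 ± 232 in those labelled WT, and groups that overlapped (log2 fold change -0.10, adjusted p = 0.307, limma; 0.041 with TMM factors). Ptpn11 was at 0.064 (adjusted p = 0.517) and passed with TMM factors at 0.21. Inpp5d, the lipid phosphatase of the pathway, fell by 0.41 (adjusted p = 0.00324), or by 0.27 with TMM factors. Of the Dok adaptors Dok3 fell by 0.50 (adjusted p = 0.000736), Dok1 fell by 0.31, a call lost with TMM factors (adjusted p = 0.0879), and Dok2, which Cd200r1 recruits, rose by 1.20 (adjusted p = 0.00193). Dok2 was low, with 116.8, 78.2 and 88.6 normalised reads in KO A, KO B and KO C and 37.5, 35.6 and 47.6 in WT A, WT B and WT C, which did not overlap.

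Kinases that phosphorylate the tails were lower in 3 of 7 and higher in 1 (median -0.18). With TMM factors 2 were lower and 2 higher. For all tested genes the shares were 23.4% lower and 11.3% higher, or 15.0% and 15.4% with TMM factors. Lyn, the Src-family kinase best known for ITIM phosphorylation, fell to 15585 ± 508 normalised reads in the libraries labelled KO, against 23125 ± 1106 in those labelled WT (log2 fold change -0.57, adjusted p = 0.000158, limma). Fyn fell by 0.66 (adjusted p = 0.00196), and Src rose by 0.32 (adjusted p = 0.00511). Syk, the kinase bound by activating adaptors, fell by 0.32 and lost its call with TMM factors (adjusted p = 0.0735).

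Of other inhibitory receptors of myeloid cells, 7 of 18 were higher and 7 lower under either scaling (median 0.17, or 0.31 with TMM factors). Over all tested genes 11.3% were higher and 23.4% lower, or 15.4% and 15.0% with TMM factors. Among the abundant ones Vsir, which encodes the checkpoint receptor VISTA, fell by 0.70 and Havcr2, which encodes TIM-3, by 0.86. Fcgr2b, the inhibitory Fc receptor, fell to 7064 ± 273 normalised reads in the libraries labelled KO, against 11482 ± 553 in those labelled WT. Siglece, a receptor of sialic acids, fell by 0.87, the collagen receptor gene Lair1 fell by 0.44, and Pecam1, an adhesion receptor with an ITIM that endothelial cells also make, fell by 1.90. Higher were Pilra at 1.30, Milr1 at 1.21, the semaphorin receptor gene Cd72 at 0.93 and the sialic acid receptor gene Cd22 at 1.09 (adjusted p = 3.48e-06 for Cd22, limma). Cd33, another sialic acid receptor, was at -0.024 (adjusted p = 0.846) and at 0.12 with TMM factors.

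**Figure D4:**
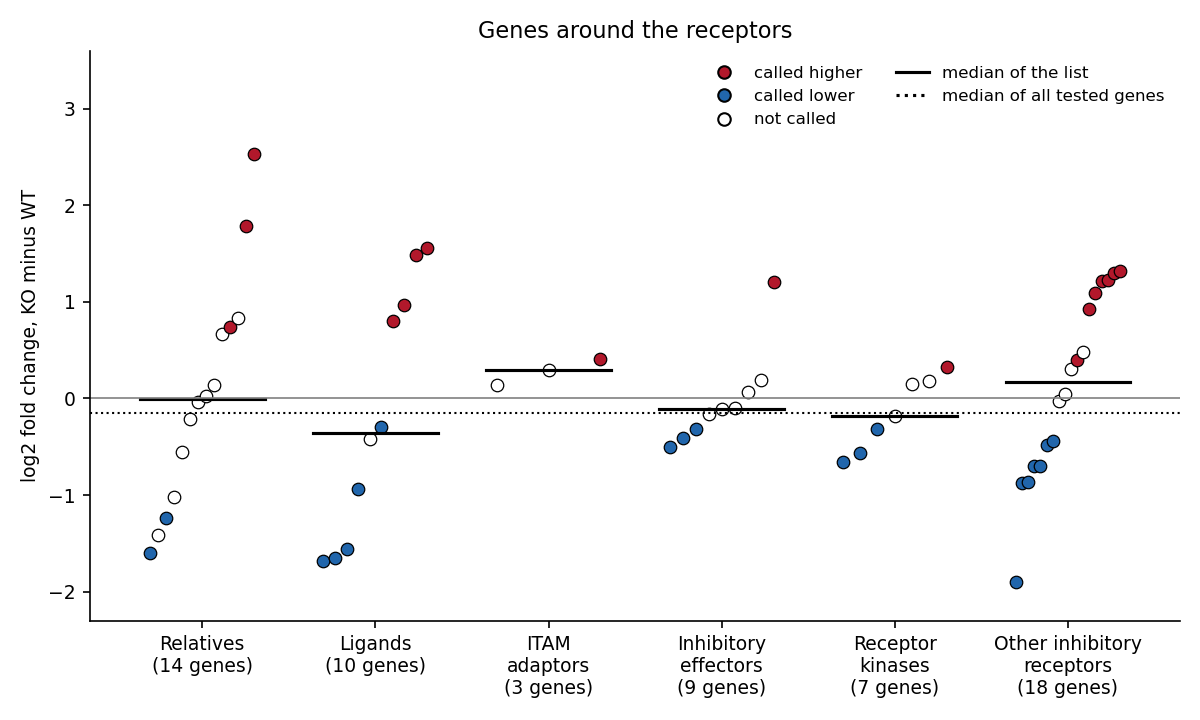
Log2 fold change (libraries labelled KO minus those labelled WT, deposited scaling) of the tested genes in 6 lists around the receptors, 1 point a gene. Filled points were called by limma, bars give the list medians, and the dotted line marks the all-gene median of -0.15; every list but the adaptors has called genes on both sides of 0.

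Likeness was measured as the root mean square difference of the 6 log2 values, each relative to the mean of the libraries labelled WT. The genes most like Lilrb4a among 10112 were Wee1 (0.13), Ifi209 (0.14) and Pim1 (0.14). This measure mostly finds genes with a similar difference between the groups, here log2 fold changes of 2.24, 2.30 and 2.36. Shared regulation was not tested. Ifi209 had 1716 ± 141 normalised reads in the libraries labelled KO and 349 ± 38.6 in those labelled WT. Those most like Sirpa were Kcnd1 (0.031), D17H6S53E (0.035) and Slc23a2 (0.036), with Kcnd1 at 2301 ± 84.1 normalised reads in the libraries labelled KO and 3747 ± 167 in those labelled WT.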

How the data were processed

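RNA sequencing of 6 libraries, 3 labelled KO and 3 labelled WT, was analysed from the deposited table. The submitters' processing notes list Trimmomatic 0.39, STAR 2.7.1a, HOMER 4.11.1, and also DESeq2 1.26.0 and the build mm10/GRCm38; the aligner's settings, the annotation release and the use of strand are not given in the sources used here. The deposited signal per gene and library is a read count that the authors scaled so that each library sums to 34360040 to 34360054. At least 99.9% of nonzero values were whole reads after division by the library's step (tolerance 0.1 reads), giving 56988261 to 77199936 whole reads per library. The deposited log2 fold changes and p-values are from the authors' own comparison. Of the kept rows, 99.05% name a GENCODE M21 transcript at the same coordinates.

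Columns named Treatment and Control were taken as KO and WT from the group names alone, and their letters match no number in the labels. Deviations from the group means correlated between the groups at 0.61, 0.20 and 0.30 for letters A, B and C over 11588 genes. Libraries with the same letter were taken as pairs in the replicate block only. The main fit and the permutation tests of the ratios did not use that pairing. Libraries of 1 group differed by more than counting error (smallest chi-square per gene 28.0).

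One row per symbol was kept (117 left out). Genes with a mean above 1 were tested with limma-trend (version 3.58.1, in R 4.3.3), using log2(value + 1), without the block, with Benjamini-Hochberg adjustment over all 22472 genes and calls at 0.05. The pseudocount shrinks the log2 changes of genes with low values; plain folds divide the group means. Alternatives were a pseudocount of 0.1 or 5, testing without the filter, filtering at the median, TMM factors, each library left out, a replicate block, a threshold of 0.01, and, for the whole reads, edgeR 4.0.16, limma-voom and DESeq2 1.42.0. The fits were tested on simulated data. The 9 members and the lists were chosen with earlier results of these data known, and no list was tested as a set. Named genes are the members, Qk, Cx3cr1 and genes of the lists, with at least the 4 of smallest p per list, and the 3 genes closest in pattern to Lilrb4a and to Sirpa among those with a mean above the median.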

Additional observations from a re-analysis of the deposited data

How the results depend on the processing

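Each alternative run gave the same direction and call for Lilrb4a, Pirb, Cd300lf and Sirpa. Cd300a was called at -0.20 on the log2 scale and lost its call at -0.20 with no filter (adjusted p = 0.0635), -0.060 with TMM factors, -0.062 with edgeR, -0.057 with DESeq2 and -0.064 with limma-voom; with 1 library left out it ranged from -0.25 to -0.16. Cd47 lost its call with no filter at 0.22 (adjusted p = 0.056) and ranged from 0.16 to 0.26 with 1 library left out. Lilra5, not called at -0.080, had the opposite sign with TMM factors (0.061), edgeR (0.074), DESeq2 (0.078), limma-voom (0.061) and without KO B, its range with 1 library left out being -0.26 to 0.068. The same range was -0.076 to 0.13 for Cd300ld, with the opposite sign without KO A or WT B, and -0.082 to 0.12 for Cd200r1, with the opposite sign without KO A; none of these was called. Cd300ld has no value under the filter at the median, which it did not pass. Members called numbered 4 to 6 over all alternatives. The deposited scaling gave 32.5% of called genes as higher, and TMM factors 50.7%. At a threshold of 0.01 there were 4710 genes called of 7781, 3 relatives of the members of 5, and 5 ligands of 9. The filter at the median left 1 relative called. Of the 3 adaptors, 1 was called with the deposited scaling, 2 with the replicate block, and 3 with TMM factors, edgeR, DESeq2 or limma-voom. Of genes outside the 9, the uncalled Cd300c2 turned to 0.11 with TMM factors, 0.10 with edgeR, 0.11 with DESeq2, 0.10 with limma-voom and 0.0016 without WT C, its range with 1 library left out being -0.069 to 0.0016. Ptpn6 turned to 0.041, 0.038, 0.042 and 0.038 under those 4, and Cd33 to 0.12, 0.11, 0.11 and 0.11, and to 0.036 without WT B (range -0.058 to 0.036). Another 42 genes, Qk, Cx3cr1 and genes named from the lists, were followed over the alternatives. Of these, 29 kept direction and side of the threshold under every alternative run. Omg lost its call with limma-voom alone. The genes closest in pattern to Lilrb4a and to Sirpa were not among the 42. With the replicate block the members' calls were those of the fit without it, 6 of 9, and 9378 genes were called in all; apart from Fcer1g and Mag, no call changed with it among the 9 members and those 42 genes. The replicate block also gave 6 called of 9 effectors and 6 of 7 kinases, against 4 in each list without it. The causes were not tested. Cd300ld, Pira2, Cd300c and Cd200 rest on few reads, which limits what their values can show.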
